A study of Homo sapiens with 2 samples.

Results

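The annexins are a family of calcium-dependent proteins that bind negatively charged phospholipids on the inner and outer faces of cell membranes. S100A10, a small protein of the S100 family, is not an annexin, but it joins ANXA2 in a complex of paired subunits that sits at the cell surface and binds plasminogen and its activator, so that plasmin is formed there. In acute promyelocytic leukemia (APL), ANXA2 with S100A10 on the leukemic promyelocytes is known for its tie to excess fibrinolysis and bleeding. The set described here holds 8 genes, ANXA1, ANXA2, ANXA4, ANXA5, ANXA6, ANXA7, ANXA11 and S100A10, taken by gene name from 11619 genes listed in both libraries. Each of the 8 names matched 1 Ensembl identifier.

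RNA was taken from NB4, an established human line of APL cells with the fusion gene PML/RARα. The cells had been infected with a lentivirus for a short hairpin RNA (shRNA) against the long non-coding RNA CRNDE (sh-CRNDE), or for a non-targeting control shRNA (sh-Control), and both cultures were harvested on day 3. There was 1 library per group, and both groups share the cell line and the infection. Which of the CRNDE hairpins the sequenced cells carried is not given in the sources used here, nor is whether the cells were 1 clone. The comparison asks which genes differ once CRNDE is lowered, and without a second library it has no replicate check, so no p-value, standard error or confidence interval is given.

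Levels were deposited as FPKM, in which the fragments of a gene are divided by transcript length and by the mapped fragments of the library, and the depth behind them is unknown. FPKM is scaled to transcript length, which allows a rough comparison of levels between genes. It does not remove effects of GC content or of sequence shared between genes. The change of a gene is log2(FPKM + 1) in sh-CRNDE less that in sh-Control, and it is called past the threshold beyond 1.5-fold (0.585 on this log2 scale), the pseudocount and fold that the study used. Adding 1 FPKM makes the change of low genes look smaller than it is. The targeted gene CRNDE was at 5.92 FPKM in sh-Control against 1.85 FPKM in sh-CRNDE. Of the markers of promyelocytes, MPO, AZU1, CD33 and ANPEP were listed in both libraries and ELANE was not listed. Their summed level was 1236 FPKM in sh-Control against 809 FPKM in sh-CRNDE. Most of this sum was MPO, at 1135 and 738 FPKM. None of 4 erythroid and none of 4 stromal or endothelial markers was listed, and of 4 epithelial markers EPCAM was listed, at 4.82 and 4.49 FPKM. The lymphoid markers CD3D, at 0.991 and 1.16 FPKM, and CD79A, at 1.02 and 0.256 FPKM, were low in both libraries.

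Before the values, the sequences that bear on these genes are given. The study describes CRNDE as a binder of the miR-181 family, microRNAs that pair through bases 2 to 8 of their 5′ end with messenger RNAs. The 4 mature miR-181 sequences (RefSeq, GRCh38.p14) are shown with these bases in capitals, because all 4 share the same seed.
hsa-miR-181a-5p: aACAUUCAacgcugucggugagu
hsa-miR-181b-5p: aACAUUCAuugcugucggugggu
hsa-miR-181c-5p: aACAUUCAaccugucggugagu
hsa-miR-181d-5p: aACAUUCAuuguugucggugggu

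A run of TGAATGT, the reverse complement of this seed, was searched in the longest 3′ untranslated region that GENCODE release 44 annotates for each gene. It was found once in ANXA6 and once in ANXA11, that is in 2 of the 8 genes (25%), and in none of the other 6. The share over all 19587 protein-coding genes with such a region was 21.2%, and over the 9952 of them in the deposited table it was 24.1%, close to that of the 8 genes. The ANXA6 match lies at chr5:151101049-151101071 (GRCh38, minus strand), in the 3′ untranslated region of transcript ENST00000354546.10. The ANXA11 match lies at chr10:80155185-80155207 (minus strand), in that of ENST00000438331.5. Each is shown with its flanking bases and the match in capitals.
ANXA6: gtggcaggggccagtTGAATGTg
ANXA11: tatgtgccttaaaccTGAATGTc

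ANXA6 and ANXA11 were not past 1.5-fold, as given with their values further on. A match of letters is not a tested site.

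The 200 bases before the RefSeq start site are shown for ANXA1 and S100A10, the members past the threshold, and for ANXA2, the partner of S100A10. Capitals mark the motif TATAAA, the GC box, which reads GGGCGG, and the motif CCAAT, each searched on both strands, and overlapping matches run together. ANXA1 is read from chr9:73151665-73151864 (plus strand), S100A10 from chr1:151993860-151994059 (minus strand) and ANXA2 from chr15:60397987-60398186 (minus strand), all on GRCh38.p14.
ANXA1: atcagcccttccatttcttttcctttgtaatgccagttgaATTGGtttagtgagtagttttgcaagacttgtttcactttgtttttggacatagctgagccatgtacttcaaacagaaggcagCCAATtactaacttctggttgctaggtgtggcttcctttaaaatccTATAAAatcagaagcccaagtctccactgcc
S100A10: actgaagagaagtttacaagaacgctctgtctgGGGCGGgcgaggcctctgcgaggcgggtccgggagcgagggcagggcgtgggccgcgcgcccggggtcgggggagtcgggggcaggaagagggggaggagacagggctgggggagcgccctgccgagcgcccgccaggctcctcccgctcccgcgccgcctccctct
ANXA2: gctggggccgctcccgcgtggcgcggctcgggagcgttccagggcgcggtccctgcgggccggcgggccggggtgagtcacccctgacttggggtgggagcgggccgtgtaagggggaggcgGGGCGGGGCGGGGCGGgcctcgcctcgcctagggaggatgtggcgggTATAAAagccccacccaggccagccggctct

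The promoters of ANXA1 and ANXA2 each hold TATAAA, 31 bases before the start site, while that of S100A10 does not. TATAAA is found in 10.7% of 35116 RefSeq windows of the 250 bases before a start site. The ANXA2 promoter has 3 overlapping GC boxes, from 78 bases before the start, and the S100A10 promoter has 1, 167 bases before the start. A GC box is found in 42.6% of the windows. ANXA1 has no GC box and 2 CCAAT matches, a motif found in 32.0% of the windows. Over the 250 bases, G and C made up 38.4% of the ANXA1 window, 71.2% of the S100A10 window and 78.0% of the ANXA2 window. The 2 genes past the threshold therefore shared none of these 3 motifs.

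Of the 8 genes, S100A10 and ANXA1 were past 1.5-fold, both higher in sh-CRNDE, and none was past it in the lower direction. Over all 11619 genes, 17.2% were past 1.5-fold, 8.38% as higher and 8.83% as lower. With 8 genes, 2 are 25% of the set, and with 1 library per group no test can set that count apart from the background. The background itself was above 25% with pseudocounts of 0.1 (28.4%) and 0.01 (30%) and with rescaling (27.8%), where the count of members stayed at 2. With the pseudocount of 1, it was 14.1% among the 8773 genes at 1 FPKM or more in both libraries. All 8 members reached that level. The rescaling raised the values before 1 was added, so it also acted as a smaller pseudocount. The study names ANXA1 among the genes it took as changed in these libraries, so its place in the count is not independent. In sh-CRNDE 6 of the 8 genes were higher and 2 were lower. Their changes ran from -0.33 to 0.77 with a median of 0.21, and the median over all genes was -0.01, with quartiles of -0.26 and 0.23. In bulk RNA, fewer cells of a type and less RNA per cell cannot be told apart. The plot of levels by library gives both values of each gene.

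**Figure D1:**
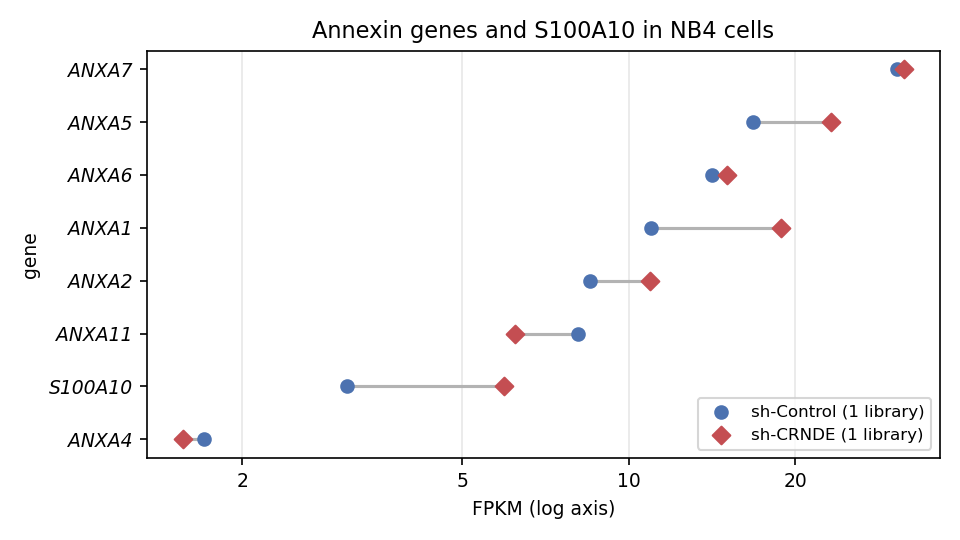
FPKM of the 8 genes (log axis) in the sh-Control library (circles) and the sh-CRNDE library (diamonds), 1 library each and no error bars. S100A10 went from 3.09 to 5.96 FPKM and ANXA1 from 10.99 to 18.8 FPKM, while the pairs of points of ANXA4, ANXA6 and ANXA7 lie close together.

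S100A10 (ENSG00000197747; chr1:151982915-151993859, minus strand, 3 exons, GRCh38) had the highest change of the set. Its level was 3.09 FPKM in sh-Control against 5.96 FPKM in sh-CRNDE, a ratio of 1.93 and a change of 0.77. Of all genes, 94.7% had a lower change. The gene stood at percentile 43.7 of all levels in sh-Control and at percentile 61.2 in sh-CRNDE, and was the lowest of the set but for ANXA4 in both libraries. Its canonical transcript, at 671 bases, was also the shortest of the set, so few fragments may lie behind these values. Without fragment counts the counting error of its ratio is unknown.

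ANXA2 (ENSG00000182718; chr15:60347134-60402883, minus strand, 13 exons) binds S100A10 through its N-terminus. ANXA2 was at 8.52 FPKM in sh-Control against 10.9 FPKM in sh-CRNDE, or a log2 change of 0.32 that was not past 1.5-fold and was higher than that of 81.5% of all genes. The FPKM ratio of ANXA2 to S100A10, which no scaling of a whole library can move, was 2.75 in sh-Control and 1.83 in sh-CRNDE. ANXA2 thus exceeded its partner in FPKM in both libraries, by less in sh-CRNDE.

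ANXA2 shares sequence with a processed pseudogene, and the read length, which sets how many reads are ambiguous, is not given in the sources used here. Of the 1505 runs of 50 bases in the canonical ANXA2 transcript, 38.2% also occur in ANXA2P2, an intronless copy on chromosome 9. ANXA2P2 was listed at 0.881 FPKM in sh-Control against 1.49 FPKM in sh-CRNDE. With the pseudogene added, the change of ANXA2 was 0.37. The canonical transcripts of S100A10, ANXA1, ANXA4, ANXA5, ANXA6 and ANXA7 share no run of 50 bases with an annotated transcript of another gene, and that of ANXA11 shares 0.329% of its runs.

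ANXA1 (ENSG00000135046; chr9:73151865-73170393, plus strand, 13 exons) encodes annexin A1, or lipocortin, a glucocorticoid-induced protein of neutrophils and monocytes that restrains phospholipase A2 and leukocyte recruitment. It was at 10.99 FPKM in sh-Control against 18.8 FPKM in sh-CRNDE, a ratio of 1.71 and a change of 0.73. ANXA1 passed ANXA6 between the libraries and moved from the fourth to the third highest level of the set. None of its 3 formyl peptide receptors, FPR1, FPR2 and FPR3, is listed. Across the 8733 genes with a GC value and at least 1 FPKM in both libraries, the change was lower at higher GC content (Spearman rho -0.44, over genes of 1 pair of libraries, which are not replicates). At 40.8%, the ANXA1 transcript was the lowest of the set in GC content, and its change was 0.60 once the median over genes near it in GC content had been taken off. S100A10, at 47.5% GC, had a change of 0.72 after this step, so that both remained past 1.5-fold. Among the markers of promyelocytes, MPO went from 1135 to 738 FPKM and AZU1 from 33.2 to 15.1 FPKM. Both were past 1.5-fold as lower, as were 8.83% of all genes, and CD33 and ANPEP were not past it. After the same GC step AZU1 was at -0.72 and still past 1.5-fold, while MPO was at -0.43 and no longer past it. With quantile normalization AZU1 was at -1.11 and MPO at -1.54. The part of these markers in the values of S100A10 and ANXA1 was not tested.

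**Figure D2:**
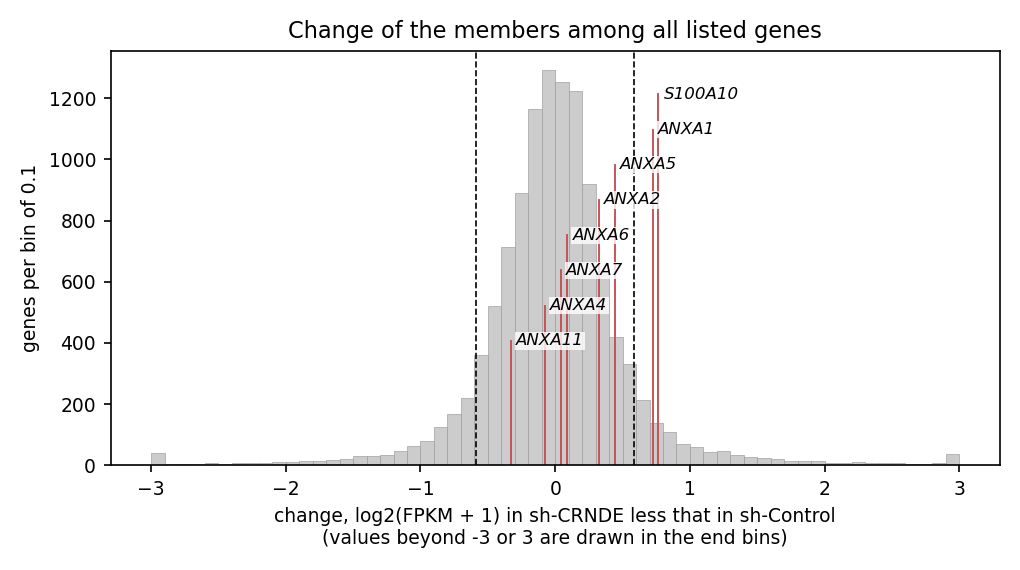
Change of all 11619 genes (grey bars, number of genes per bin) with the 8 genes as red lines, whose heights only separate the labels, and the 1.5-fold threshold as dashed lines. S100A10 (0.77) and ANXA1 (0.73) lie beyond the upper threshold, and the other 6 genes lie between the thresholds.

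ANXA5 (ENSG00000164111; chr4:121667946-121696995, minus strand, 13 exons) binds phosphatidylserine and is the reagent used to stain dying cells. It was at 16.8 FPKM in sh-Control against 23.2 FPKM in sh-CRNDE. Its change of 0.44 was not past 1.5-fold, and 87.2% of all genes had a lower change. Scramblases and flippases move phosphatidylserine between membrane leaflets. Of the 9 scramblase and flippase genes chosen, 7 were listed, and their changes ran from -0.33 for ATP11A to 0.07 for ATP11B. Of these 7, 0 were past 1.5-fold in either direction, beside 17.2% of all genes.

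ANXA7 (ENSG00000138279; chr10:73375101-73414076, minus strand, 13 exons), also known as synexin for its part in membrane fusion, had the highest level of the set in both libraries. It was at 30.6 FPKM in sh-Control against 31.4 FPKM in sh-CRNDE, or a log2 change of 0.04. SRI encodes sorcin, a calcium-binding partner of ANXA7, and was at 6.24 and 6.46 FPKM, so that the ratio of ANXA7 to SRI was 4.89 and 4.86. ANXA6 (ENSG00000197043; chr5:151100706-151157815, minus strand, 26 exons) is the family's only member with a doubled core. It was at 14.1 FPKM in sh-Control against 15.1 FPKM in sh-CRNDE, or a log2 change of 0.09. The changes of ANXA6 and ANXA7 thus lay between the quartiles of all genes.

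The remaining members were lower in sh-CRNDE without passing the threshold. ANXA11 (ENSG00000122359; chr10:80150889-80205572, minus strand, 16 exons), which tethers RNA granules to lysosomes, was at 8.10 FPKM in sh-Control against 6.24 FPKM in sh-CRNDE. Its change of -0.33 was the lowest of the set, and 20.1% of all genes had a lower one. PDCD6, which encodes the ANXA11-binding protein ALG-2, was at 6.52 FPKM in sh-Control against 8.84 FPKM in sh-CRNDE, and the ratio of ANXA11 to PDCD6 was 1.24 and 0.706. ANXA4 (ENSG00000196975; chr2:69644425-69827112, plus strand, 13 exons) had the lowest level of the set and was at 1.70 FPKM in sh-Control against 1.56 FPKM in sh-CRNDE, or a log2 change of -0.08.

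From highest to lowest, the levels in sh-Control ran from ANXA7 through ANXA5, ANXA6, ANXA1, ANXA2, ANXA11 and S100A10 to ANXA4. In sh-CRNDE the order differed only in that ANXA1 stood above ANXA6. The span from ANXA4 to ANXA7 was 17.9-fold in sh-Control and 20.1-fold in sh-CRNDE. With 1 library per group, whether neighbours in this order differ beyond the spread between samples is unknown.

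Of the family's other genes, ANXA8, ANXA8L1 and ANXA9 were listed, and ANXA3, ANXA10 and ANXA13 were not. Every gene listed reached 0.50 FPKM in at least 1 library. ANXA9 was at 0.549 FPKM in sh-Control against 1.08 FPKM in sh-CRNDE, or a log2 change of 0.42. ANXA8 and ANXA8L1 are close copies, with 82.5% of the 50-base runs of ANXA8 also in ANXA8L1, so their separate values are uncertain, and their summed level was 10.5 FPKM in sh-Control against 8.97 FPKM in sh-CRNDE. The 10 listed annexin genes together came to 101.9 FPKM in sh-Control against 117.3 FPKM in sh-CRNDE, a ratio of 1.15. The summed FPKM of all genes was also higher, at 141217 in sh-Control against 170373 in sh-CRNDE, though their median change was -0.01. ANXA1 made up 10.8% of the annexin sum in sh-Control and 16.05% in sh-CRNDE, the highest gain of the 10 genes, at 5.26 percentage points. ANXA5 gained 3.29 points, and the share of ANXA7 fell by 3.20 points.

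**Figure D3:**
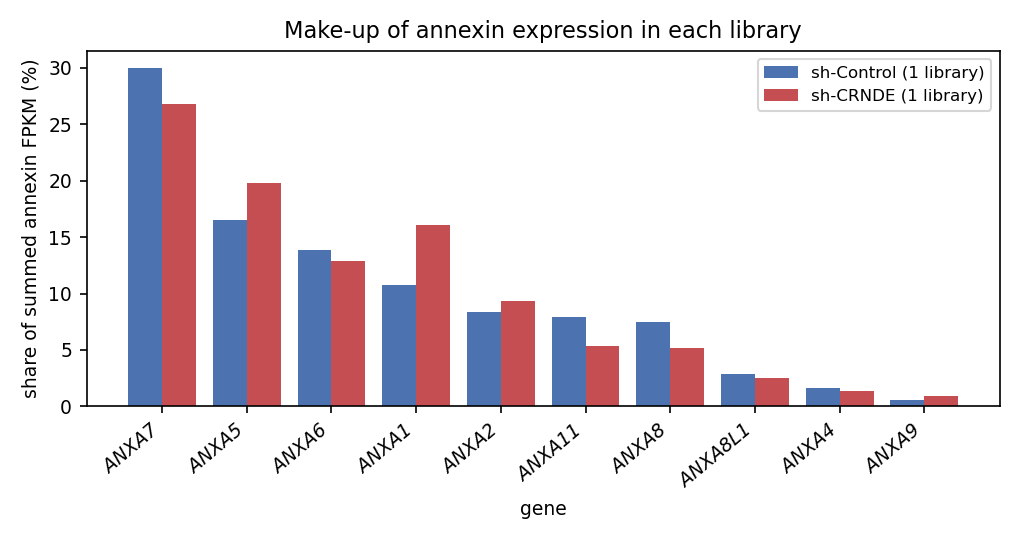
Share of each of the 10 listed annexin genes in the summed annexin FPKM (%), in the sh-Control and sh-CRNDE libraries, 1 library each and no error bars. ANXA7 was the highest in both, at 29.99% and 26.8%, and ANXA1 went from 10.8% to 16.05%.

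The RNA levels of genes whose proteins work with the members did not all go the same way, and no protein was measured. AHNAK, a very large scaffold protein that binds the complex of ANXA2 and S100A10 under the membrane, was at 25.9 FPKM in sh-Control against 1.18 FPKM in sh-CRNDE, or a log2 change of -3.63 and a 22.03-fold lower FPKM. Only 0.207% of all genes had a lower change. Thus S100A10 was past 1.5-fold as higher while AHNAK was past it as lower. CTSB, the protease cathepsin B that S100A10 can bind, was at 4.21 FPKM in sh-Control against 6.84 FPKM in sh-CRNDE, or a log2 change of 0.589, just beyond the threshold of 0.585. The other listed partners, DYSF and HLTF, had changes of 0.28 and 0.12, and DLC1, AHNAK2 and ANXA2R were not listed.

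S100 proteins are the usual partners of annexins, and 8 of the 19 other S100 genes chosen were listed. Of these, S100A13 (0.72) and S100A4 (0.60) were past 1.5-fold as higher, S100A11 (-1.47) and S100P (-0.59) were past it as lower, and 4 were not past it. Over all genes, 8.38% were past it as higher and 8.83% as lower, and no test was run on so few genes. S100P was inside 1.5-fold under 3 of 6 alternatives, median centring among them (-0.584), and S100A4 under quantile normalization (0.572). The median change of these 8 S100 genes was 0.20. S100A11, which binds ANXA1 as S100A10 binds ANXA2, was at 161.5 FPKM in sh-Control against 57.5 FPKM in sh-CRNDE. The ratio of ANXA1 to S100A11 was 0.0681 in sh-Control and 0.327 in sh-CRNDE, so that S100A11 exceeded ANXA1 in FPKM in both libraries. S100A10 and S100A11 are neighbours on chromosome 1, 38647 bases apart on the same strand, and their changes were opposite in sign. S100A4, a protein of motile cells, was at 67.8 FPKM in sh-Control against 103.5 FPKM in sh-CRNDE. S100A6, which binds ANXA11, was at 7.23 and 7.45 FPKM, a change of 0.04. S100A8 was not listed, and its partner S100A9 was at 2.0045 FPKM in sh-Control against 2.69 FPKM in sh-CRNDE.

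**Figure D4:**
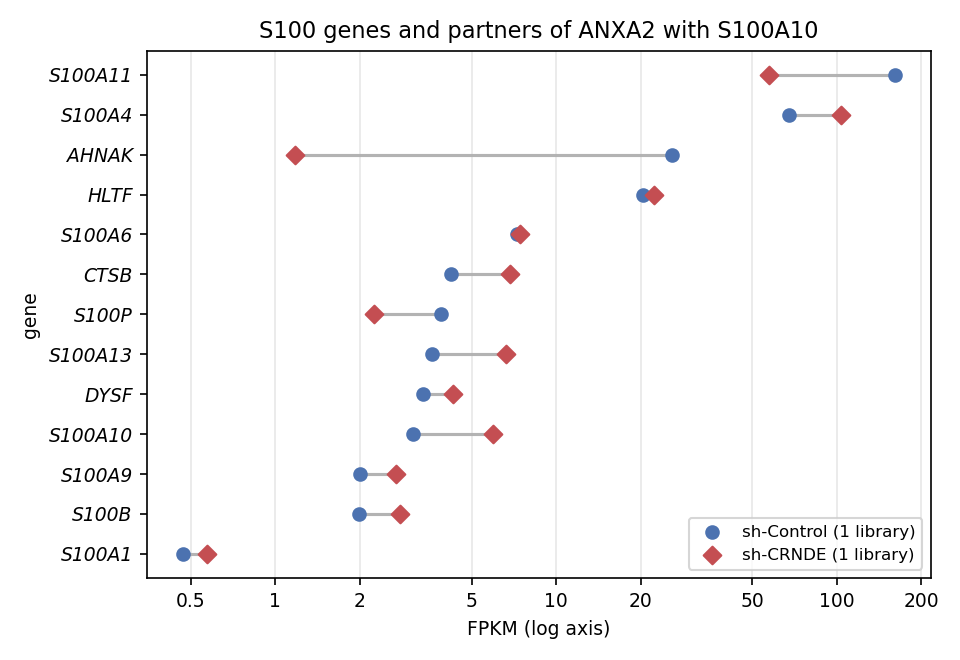
FPKM (log axis) of S100A10, the 8 other listed S100 genes and the listed partners of ANXA2 with S100A10, in sh-Control (circles) and sh-CRNDE (diamonds), 1 library each and no error bars. AHNAK (25.9 to 1.18 FPKM) and S100A11 (161.5 to 57.5 FPKM) lie far lower in sh-CRNDE, against the direction of S100A10.

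In the plasminogen system itself, few genes were listed. Of 10 genes for plasminogen, its activators, the activator receptor and inhibitors, PLAU, PLAUR and SERPINE2 were listed. Of these 3, 0 were past 1.5-fold, beside 17.2% of all genes. PLAU, the urokinase activator, was at 3.55 FPKM in sh-Control against 3.06 FPKM in sh-CRNDE. PLAUR, its receptor, was at 1.92 FPKM in sh-Control against 1.24 FPKM in sh-CRNDE, or a log2 change of -0.38, so that S100A10 was higher where PLAUR was not. All 4 genes chosen for other surface proteins that bind plasminogen were listed, and 0 were past 1.5-fold, beside 17.2% of all genes. ENO1 was at 415.4 and 414.4 FPKM, and HMGB1 at 136.5 and 182.6 FPKM with a change of 0.42. PLGRKT was at 3.13 and 4.67 FPKM with a change of 0.46, and ITGAM at 2.31 and 2.43 FPKM with a change of 0.05. F3, which encodes tissue factor, the starter of coagulation, was at 7.57 FPKM in sh-Control against 8.54 FPKM in sh-CRNDE, or a log2 change of 0.16. Of the 4 listed enzymes of phospholipid release and eicosanoid synthesis, of 7 chosen, PLA2G4A, the cytosolic phospholipase A2, had the highest change, 0.55, from 4.83 to 7.51 FPKM.

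Genes with nearly the same pair of levels were found by the distance over log2(FPKM + 1) in both libraries, which describes 2 values per gene and no more. The 3 nearest to S100A10 were ZFX, MIER1 and RNF2, at distances of 0.03 to 0.07. The 3 nearest to ANXA1 were PXK, KIF14 and TXNIP, at 0.04 to 0.09, and those nearest to ANXA2 were SPDL1, USP48 and BTAF1, at 0.02 to 0.03.

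The changes were recomputed under other pseudocounts and scalings. S100A10 stayed between 0.72 and 0.94 and ANXA1 between 0.60 and 0.78, each past 1.5-fold under all 6 alternatives run for it. ANXA7 alone changed sign, to -0.07 after the subtraction for GC content. ANXA2 ran from 0.28 to 0.37 with the pseudogene sum included, ANXA5 from 0.36 to 0.47 and ANXA11 from -0.38 to -0.25, and none of these 3 genes was past 1.5-fold in any of them.

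**Figure D5:**
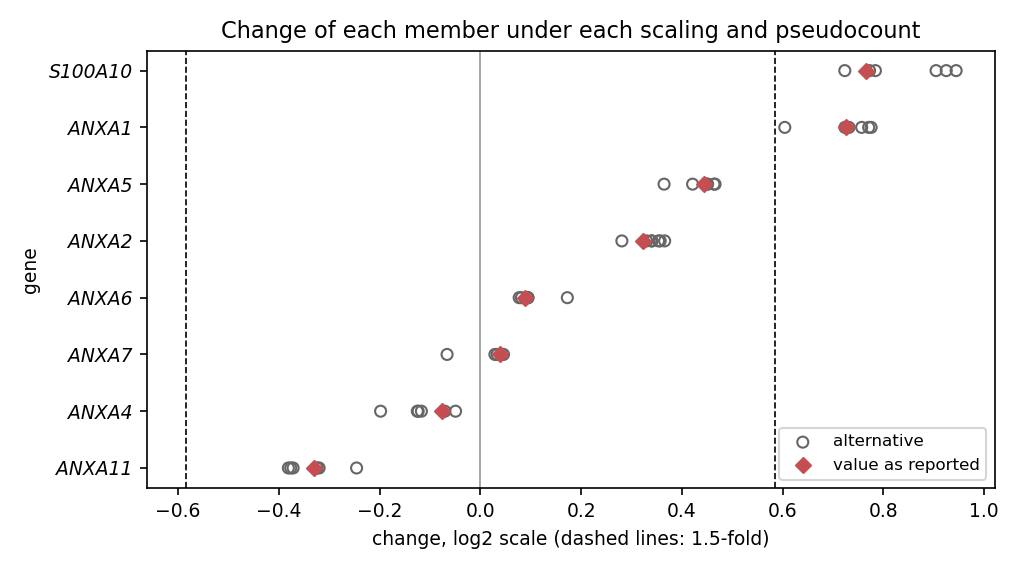
Change of each of the 8 genes as reported (diamonds) and under the other pseudocounts and scalings and, for ANXA2, with the pseudogene added (open circles), with the 1.5-fold threshold as dashed lines. S100A10 (0.72 to 0.94) and ANXA1 (0.60 to 0.78) stay beyond the upper line, and the other 6 genes stay inside both lines.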

How the data were processed

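NB4 cells with sh-CRNDE or sh-Control were sequenced as 1 library each after preparation with the TruSeq RNA kit. The authors deposited FPKM values per gene, and the study refers to a HISAT, StringTie and Ballgown protocol for its comparison. The submitters' processing notes name fastp 0.20.0, HISAT2 2.0.4, StringTie 1.2.3 and GRCh38. The gene annotation and the depth are not given in the sources used here. Samples were grouped by their treatment label.

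From the deposited FPKM values, log2(FPKM + 1) in sh-Control was subtracted from that in sh-CRNDE, with no filter and no further scaling, and changes beyond 1.5-fold were counted. No test was run. The calculation was tested on simulated data built from genes at 10 FPKM or more. These data did not cover lower levels or changes near 1.5-fold. Coordinates, exons, GC content and 3′ untranslated regions are from GENCODE release 44, with 99.0% of identifiers matched, and microRNAs and promoters are from RefSeq. The members and gene lists were chosen with earlier results of these data known. Genes named are the members, CRNDE, the 3 genes nearest to ANXA1, ANXA2 and S100A10, and list genes past 1.5-fold or at 10 FPKM. DYSF, SRI, PDCD6, S100A6, S100A9, ATP11A, CD33, CD3D, EPCAM, ANXA8, ANXA8L1, ANXA9, ANXA2P2, PLAU, PLAUR, SERPINE2, PLGRKT, ITGAM, F3 and PLA2G4A lie outside that rule and were named after their values were seen. Some list genes are not reported here. Python 3.11.15, numpy 2.4.6, pandas 2.3.3, scipy 1.17.1 and matplotlib 3.10.9 were used.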

Additional observations from a re-analysis of the deposited data

How the results depend on the processing

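The count of 2 members past 1.5-fold was the same under pseudocounts of 0.1 and 0.01, median centring, quantile normalization, rescaling with mitochondrial, rRNA and small RNA genes left out, subtraction of a median set by GC content, addition of the pseudogene to ANXA2 and the FPKM ratio without a pseudocount, and was 0 with a threshold of 2-fold. Of 49 recomputed changes of single members, 48 kept their direction and their side of 1.5-fold, and ANXA7 changed sign to -0.066 with the GC subtraction. Another pseudocount cannot change a sign, and median centring took off only -0.006, so most of these settings could move little. They do not measure the spread between samples. The log2 ratio of the ANXA2 to S100A10 ratios was -0.589, close to the threshold of 0.585, and came to -0.571 with a pseudocount of 0.1 and to -0.547 with the pseudogene added. The median change of the members was 0.09 without ANXA1, an alternative chosen after seeing the data. Over all genes, the count of 2000 past 1.5-fold became 3301 and 3481 with pseudocounts of 0.1 and 0.01 and 3226 with rescaling, shares of 28.4%, 30% and 27.8% that exceed the 25% of the members. The rescaling raised the values before 1 was added, so the effect of leaving genes out cannot be told apart from that of a smaller pseudocount. For the count over all genes, the remaining alternatives were these. The count was 774 with a threshold of 2-fold and 1239 (14.1% of 8773) when both libraries had to reach 1 FPKM. It was 1278 (17.2% of 7424) among genes within the members' range of mean FPKM, also chosen after seeing the data. S100P (-0.584 with centring, -0.564 with quantile normalization and -0.506 with GC subtraction) and S100A4 (0.572 with quantile normalization) fell inside 1.5-fold, as did the markers MPO (-0.43) and CD79A (-0.45) with GC subtraction. ANXA9, PLAUR and PLA2G4A passed it with either smaller pseudocount and with rescaling, the widest values being 0.96, -0.62 and 0.64. No paired analysis was possible because there was 1 library per group, and no replicate could be left out. The unknown depth limits what can be said of genes of low FPKM, such as ANXA4 and ANXA9, and of short transcripts. The canonical transcript of S100A10, at 671 bases, is the shortest of the set, so fewer fragments may lie behind a given FPKM. AHNAK was near 1 FPKM in sh-CRNDE, and its canonical transcript has 18761 bases. Whether the deposited levels rest on these canonical transcripts is not known, so the fragments behind them cannot be inferred.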
